A study of Chlorocebus sabaeus with 3 samples.

Results

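The axon guidance ligands and receptors examined here were a fixed list of 38 genes from the semaphorin, plexin and neuropilin, slit and robo, netrin, and ephrin and Eph families. Of these, 37 had at least 1 probe set with their symbol alone, among 19775 genes named in that way on the array, and 1 was not analysed here. The 37 genes had 97 such probe sets. The probe set with the highest average log2 value over the 3 tissues stood for its gene, and the others served as a check.

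Vervet monkey limbus, cornea, and conjunctiva were profiled, with 1 array for each. The limbus is the rim where the cornea meets the conjunctiva, and it holds the stem cells of the corneal epithelium. According to the study the tissues were taken from the same eye, and each sample combined the epithelium with the stroma beneath it, or with Tenon's tissue in conjunctiva. No genetic alteration or treatment is given. The methods state the age of the animals as a range in months, and the labels tie no animal, sex, or age to a sample. The values are intensities normalized by RMA, which subtracts background signal and merges the probes that target a transcript, and they are given on a linear scale. With 1 array per tissue there was no replicate, so the differences carry no replicate error and were not tested. The array was designed on human sequence, so values were compared between tissues within a probe set and never between genes. A value of 100, about 2-fold above the median of each array, served as the level under which ratios were treated as uncertain.

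Axon guidance cues steer growing nerve fibers by attracting or repelling the growth cone. Semaphorins signal through plexins, and the secreted class 3 semaphorins do so mostly with a neuropilin as co-receptor. Slits repel through robo receptors, netrins act through DCC and UNC5 receptors, and ephrins bind Eph receptor tyrosine kinases on neighboring cells. Most of these genes are also used outside the nervous system, in blood vessels, epithelia, and immune cells. The cornea is densely supplied by sensory fibers that enter it through the limbus, and it has no blood vessels of its own.

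The arrays had similar distributions, with medians of 49.0 in limbus, 48.8 in cornea, and 50.7 in conjunctiva. All 4 markers of the corneal epithelium and all 5 of the corneal stroma were highest in cornea. All 6 goblet cell and mucosal markers were higher in conjunctiva than in cornea, although the mucosal keratins KRT13 and KRT4 were highest in limbus. The hybridization controls, which are added in equal amounts to every array, were lower on the limbus array than on the cornea array by a log2 difference of -0.62, and lower than on the conjunctiva array by a log2 difference of -0.29.

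Most of the guidance genes differed little between the tissues, and 12 of the 37 were at least 2-fold apart in some pair (32.4%, compared with 13.9% of all genes). The 12 were the semaphorins SEMA3C, SEMA4A, and SEMA4D, the receptors NRP1, PLXNA1, PLXNA2, and PLXNC1, the slit receptor ROBO2, the netrins NTN1, NTN4, and NTNG1, and the netrin receptor UNC5B. Among genes with a value of at least 100, the counts were 11 of 31 members (35.5%) and 20.3% of all such genes. The list was drawn up with results of these arrays known, so these shares describe it and are no evidence that it stands apart.

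Set against the cornea, the limbus had 7 of the 37 genes higher by 2-fold or more, compared with 4.06% of all genes, and 0 lower by 2-fold or more, compared with 2.51%. The 7 were PLXNC1, NRP1, NTNG1, ROBO2, NTN4, SEMA4A, and SEMA3C. Against the conjunctiva, ROBO2, NTNG1, and UNC5B were at least 2-fold higher in limbus, which is 3 genes compared with 2.62% of all genes, and NTN1 was lower, 1 gene compared with 2.31%. Between the cornea and the conjunctiva, SEMA4D, PLXNA2, and UNC5B were at least 2-fold higher in cornea, 3 genes compared with 5.31%. SEMA3C, NRP1, PLXNA1, PLXNC1, NTN1, and NTN4 were at least 2-fold lower in cornea, 6 genes compared with 5.68%. The median log2 difference over the 37 genes was 0.04 for the limbus minus the cornea, 0.05 for the limbus minus the conjunctiva, and -0.01 for the cornea minus the conjunctiva. Over all genes it was -0.05, -0.04, and 0.01, so that the list as a whole was centered near the array.

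**Figure D1:**
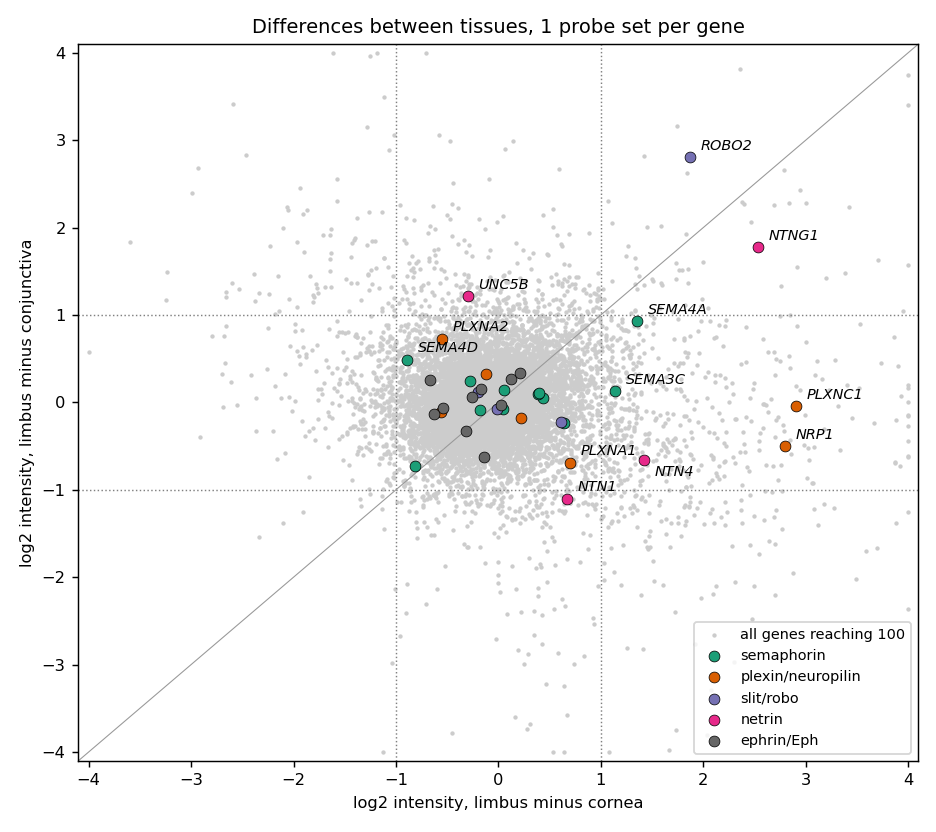
Log2 difference of the limbus minus the cornea (horizontal axis) and of the limbus minus the conjunctiva (vertical axis), from 1 array per tissue, for the guidance genes by family (colored) and for all genes reaching 100 in any tissue (gray, with values beyond the axes drawn at the edge). Dotted lines mark 2-fold and the diagonal marks equal cornea and conjunctiva; ROBO2 and NTNG1 lie past 2-fold on both axes, and PLXNC1 and NRP1 only on the horizontal one.

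By the stricter criterion of a value at least 2-fold above each of the other tissues, ROBO2 and NTNG1 belonged to the limbus, 2 genes compared with 0.475% of all genes. The study had already listed both among its top limbal transcripts, selected from these arrays by the same criterion. Their count here is therefore no independent result. NTN1 belonged to the conjunctiva, 1 gene compared with 1.68%, and 0 genes belonged to the cornea, compared with 1.89%. The limbus took the middle position in 8 of the 9 genes that separated cornea and conjunctiva by 2-fold or more (88.9%, compared with 85.6% of all genes apart in that pair). SEMA3C was the exception, with its highest value in limbus. The limbus was nearer to the conjunctiva in 6 of the 9 and nearer to the cornea in 3. Over all genes apart in that pair it was nearer to the cornea in 40.3%.

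Among the ligands, 0 of the 12 semaphorins were 2-fold apart between the limbus and the conjunctiva, compared with 4.94% of all genes. With so few genes, that count is close to the share. In that pair 10 semaphorins lay within a log2 difference of 0.5, compared with 7 for the limbus against the cornea and 8 for the cornea against the conjunctiva. SEMA4A, a membrane-bound semaphorin known from immune cells and the retina, read 290 in limbus, 113 in cornea, and 152 in conjunctiva. It was 2.56-fold higher in limbus than in cornea and, at 1.91-fold, fell just short of the threshold against the conjunctiva. The second SEMA4A probe set read 50.9 in limbus, 53.6 in cornea, and 55.3 in conjunctiva and did not share the difference. SEMA4D, the ligand of plexin-B1 and a surface protein of lymphocytes, read 124 in limbus, 230 in cornea, and 87.9 in conjunctiva. The cornea was the high tissue, 2.62-fold above the conjunctiva. The limbus had 0.538 of the corneal value, and the other SEMA4D probe set was nearly level at 86.7 in limbus, 89.2 in cornea, and 96.2 in conjunctiva.

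SEMA3C, a secreted semaphorin that binds both neuropilins, was low on all arrays, with 66.9 in limbus, 30.4 in cornea, and 61.3 in conjunctiva. The cornea stood below the other tissues by 2.20-fold and 2.01-fold, and the second probe set pointed the same way at 45.7 in limbus, 32.2 in cornea, and 44.2 in conjunctiva. SEMA3A, a secreted repellent of sensory axons, had its lowest value in limbus, at 89.1, compared with 156 in cornea and 148 in conjunctiva. That is 0.571 of the cornea and 0.603 of the conjunctiva, under 2-fold in both cases. The other SEMA3A probe sets were under 100 in every tissue. SEMA3F, which acts through neuropilin-2, was nearly even at 1746 in limbus, 1332 in cornea, and 1624 in conjunctiva.

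SEMA6A, a transmembrane ligand of A-type plexins, was lowest in cornea, with 113 in limbus, 72.6 in cornea, and 134 in conjunctiva. SEMA4B, SEMA5A, and SEMA7A were 1.10-fold, 1.45-fold, and 1.32-fold apart between their highest and lowest tissue. SEMA5A, which carries thrombospondin repeats, was highest in cornea, and the GPI-anchored SEMA7A in limbus. The class 3 members SEMA3B, SEMA3D, and SEMA3E stayed at 32.5 or lower in every tissue, so their ratios carry little information. A brighter SEMA3B probe set, shared with the microRNA MIR6872 and therefore left out of the counts, read 255 in limbus, 246 in cornea, and 394 in conjunctiva.

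The widest differences lay among the semaphorin receptors. Neuropilin-1 (NRP1), the co-receptor of class 3 semaphorins and of VEGF, read 127 in limbus, 18.2 in cornea, and 180 in conjunctiva. The limbus exceeded the cornea 6.98-fold, and the cornea was 9.88-fold below the conjunctiva. The corneal value was under the lower quartile of its array, 23.8, so the size of these ratios is uncertain. With a pseudocount of 32 the log2 difference of the cornea minus the conjunctiva was -2.08 for NRP1 and -2.28 for PLXNC1, compared with -3.30 and -2.94 without it, so the order of these 2 genes turned. Plexin-C1 (PLXNC1), the receptor of SEMA7A, read 330 in limbus, 44.3 in cornea, and 339 in conjunctiva. The limbus and the conjunctiva were level, at a ratio of 0.972, and the limbus exceeded the cornea 7.44-fold. In a bulk sample, fewer cells of a type and less RNA per cell cannot be told apart.

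Both differences rest on 1 probe set. The other 3 NRP1 probe sets were under 100 in every tissue, and all 3 were lower in limbus than in cornea, the opposite of the brightest one. The brightest of the 3 read 32.1 in limbus, 51.4 in cornea, and 93.3 in conjunctiva. For PLXNC1, the other 3 probe sets were also under 100, and the brightest of them read 64.0 in limbus, 62.8 in cornea, and 87.0 in conjunctiva. All 3 of them were lower in cornea than in conjunctiva, none by 2-fold.

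The A-type plexins, which transmit the signal of class 3 and class 6 semaphorins, ran in opposite directions. PLXNA1 read 428 in limbus, 263 in cornea, and 691 in conjunctiva, with the cornea 2.62-fold below the conjunctiva. PLXNA2 read 390 in limbus, 570 in cornea, and 235 in conjunctiva, with the cornea 2.42-fold above the conjunctiva. In both genes the limbus lay between. A second probe set of each gene reached 100 and kept the direction, with a log2 difference of the cornea minus the conjunctiva of -0.24 for PLXNA1 and 0.79 for PLXNA2.

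Neuropilin-2 (NRP2), the co-receptor of SEMA3F, had 11 probe sets, more than any other gene of the list. The one with the highest mean read 83.0 in limbus, 123 in cornea, and 89.9 in conjunctiva, under 2-fold throughout. Another probe set read 54.9 in limbus, 207 in cornea, and 34.1 in conjunctiva, which put the cornea 3.77-fold over the limbus and 6.08-fold over the conjunctiva. With the probe set chosen by its highest single value, NRP2 would have been the 1 gene of the list counted for the cornea. PLXNB1, the receptor of SEMA4D, and PLXND1, the receptor of SEMA3E in blood vessels, were 1.36-fold and 1.32-fold apart between their highest and lowest tissue.

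**Figure D2:**
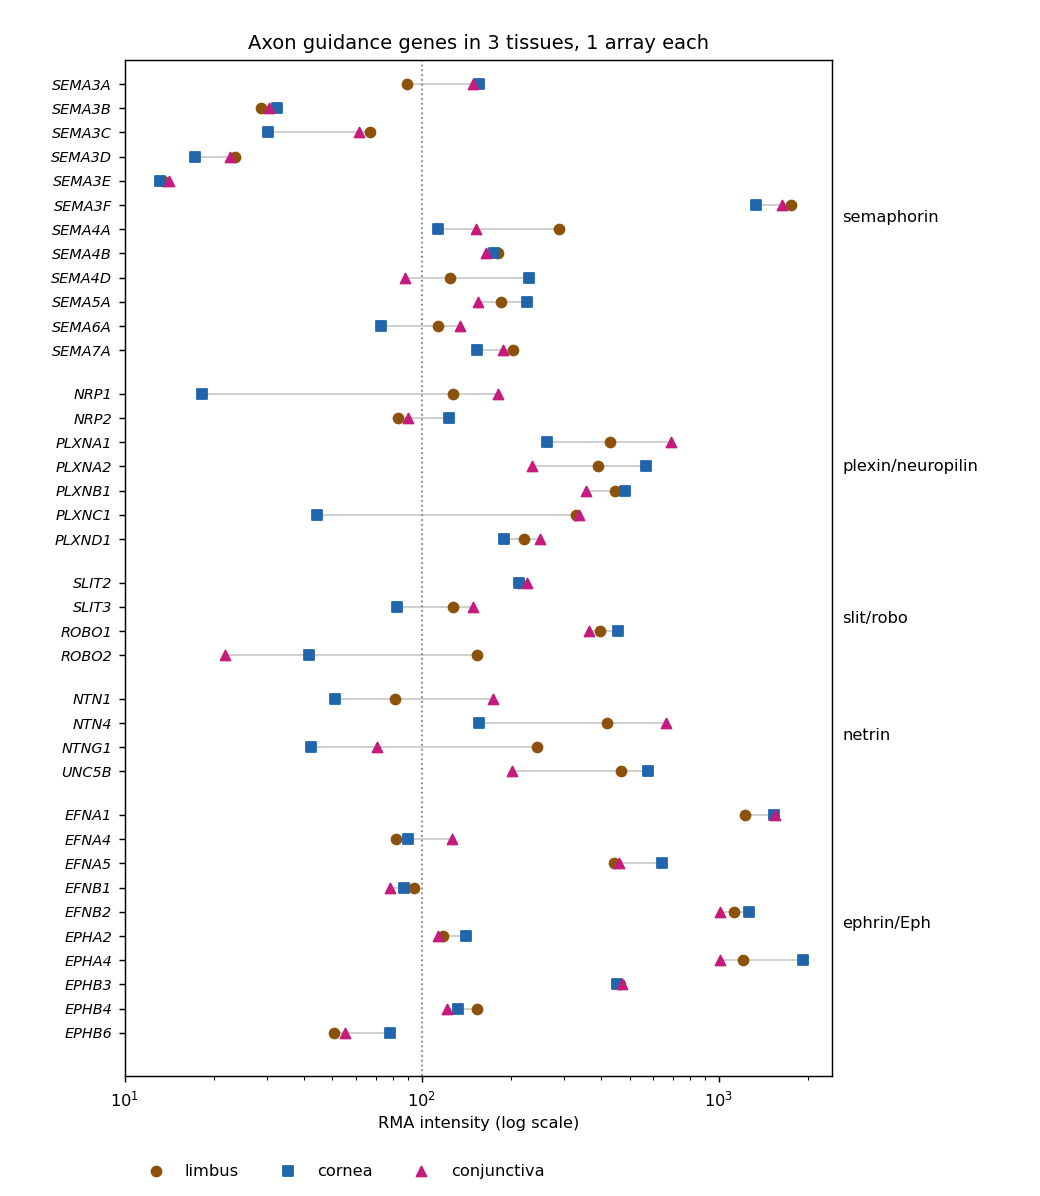
RMA intensity (log scale) of the 37 guidance genes in limbus (circles), cornea (squares), and conjunctiva (triangles), with 1 array and 1 probe set per gene shown. The dotted line marks a value of 100; levels of different genes are not comparable, and the span of a gray line is the ratio between the highest and the lowest tissue, from 9.88-fold for NRP1 to 1.04-fold for EPHB3.

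Among the slit ligands, SLIT2 was even, with 212 in limbus, 213 in cornea, and 225 in conjunctiva. A further SLIT2 probe set was highest in cornea, with 44.6 in limbus, 111 in cornea, and 44.2 in conjunctiva. SLIT3 read 127 in limbus, 82.7 in cornea, and 149 in conjunctiva, a difference of 1.80-fold between the cornea and the conjunctiva. Its second probe set had the same order with a wider span, at 92.4 in limbus, 28.8 in cornea, and 156 in conjunctiva.

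Among the slit receptors, ROBO2 was one of the clearest limbal transcripts of the list, with 153 in limbus, 41.8 in cornea, and 21.8 in conjunctiva. The limbal value exceeded that of the cornea 3.65-fold and that of the conjunctiva 7.01-fold. The conjunctival value was under the lower quartile of its array, 24.5, so the size of the larger ratio is uncertain. All 3 ROBO2 probe sets were highest in limbus. On the second of them the values were 58.2 in limbus, 23.7 in cornea, and 20.6 in conjunctiva, and on the remaining one they were 47.8 in limbus, 24.0 in cornea, and 20.9 in conjunctiva. The ratio of the limbus to the cornea on these was 2.45 and 1.99, and that of the limbus to the conjunctiva was 2.83 and 2.28. These probe sets were under 100 in every tissue. Their corneal and conjunctival values lay near or under the lower quartiles of those arrays, 23.8 and 24.5. ROBO1 read 398 in limbus, 456 in cornea, and 366 in conjunctiva, and was 1.25-fold apart at most. In the vervet gene table of RefSeq, on assembly mChlSab1.0.hap1, ROBO2 and ROBO1 are neighbors with 0 protein-coding genes between them, yet their profiles differed.

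The netrin family had the largest median shift, over only 4 genes. Its median log2 difference of the cornea minus the conjunctiva was -1.26, compared with 0.01 over all genes. Netrin-1 (NTN1), the diffusible guidance cue, read 81.2 in limbus, 50.9 in cornea, and 174 in conjunctiva. The conjunctiva was the high tissue, with the limbus 2.14-fold and the cornea 3.41-fold below it. The other NTN1 probe sets were under 100 and also highest in conjunctiva, at 53.0 and 33.6. Netrin-4 (NTN4), a netrin of basement membranes, read 419 in limbus, 156 in cornea, and 662 in conjunctiva. The limbus exceeded the cornea 2.68-fold, and the cornea was 4.24-fold below the conjunctiva. NTN4 had 1 probe set and therefore no internal check.

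Netrin-G1 (NTNG1), a GPI-anchored netrin of axons that does not use the DCC or UNC5 receptors, read 244 in limbus, 42.2 in cornea, and 70.8 in conjunctiva. The limbal value exceeded that of the cornea 5.77-fold and that of the conjunctiva 3.44-fold. All 3 NTNG1 probe sets were highest in limbus. Another of them read 62.6 in limbus, 26.0 in cornea, and 28.9 in conjunctiva, 2-fold apart on both sides, and the last read 75.9 in limbus, 65.0 in cornea, and 61.0 in conjunctiva, which was not. The repulsive netrin receptor UNC5B ran the other way from NTN1, with 467 in limbus, 576 in cornea, and 201 in conjunctiva. The conjunctiva was the low tissue, with the limbus 2.32-fold and the cornea 2.86-fold above it. A second UNC5B probe set had the conjunctiva lowest as well, with 157 in limbus, 261 in cornea, and 142 in conjunctiva. The remaining one was level, at 269 in limbus, 277 in cornea, and 297 in conjunctiva.

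The ephrins and Eph receptors were the family with no difference of 2-fold on the probe sets used. There, 0 of the 10 measured genes were 2-fold apart in any pair, compared with 13.9% of all genes, and those within a log2 difference of 0.5 numbered 7 of 10 for the limbus against the cornea, 9 for the limbus against the conjunctiva, and 9 for the cornea against the conjunctiva. With the median of all probe sets of a gene, EPHA4 was at least 2-fold higher in limbus and in cornea than in conjunctiva. The GPI-anchored ligand EFNA1 read 1225 in limbus, 1529 in cornea, and 1543 in conjunctiva. The transmembrane ligand EFNB2, known from arteries, had values of 1120 in limbus, 1263 in cornea, and 1008 in conjunctiva. EFNA5 was highest in cornea, with 443 in limbus, 644 in cornea, and 462 in conjunctiva. A second EFNA5 probe set had the same order, at 271 in limbus, 554 in cornea, and 321 in conjunctiva. It put the cornea 2.04-fold over the limbus, past the threshold. Another that reached 100 was highest in conjunctiva, with 229 in limbus, 257 in cornea, and 305 in conjunctiva. EFNA4 was highest in conjunctiva, with 81.8 in limbus, 89.9 in cornea, and 126 in conjunctiva, and EFNB1 stayed between 78.0 and 94.2.

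The receptor EPHA4, which binds ephrins of both classes, came closest to the threshold in this family. It read 1203 in limbus, 1916 in cornea, and 1005 in conjunctiva, so that the cornea was 1.91-fold above the conjunctiva. On a further EPHA4 probe set the conjunctiva was the low tissue too, with 238 in limbus, 287 in cornea, and 100 in conjunctiva, while 2 others that reached 100 did not have it lowest. EPHA2, the ephrin-A receptor of epithelia, read 118 in limbus, 141 in cornea, and 113 in conjunctiva. EPHB3 was 1.04-fold apart and EPHB4, the EFNB2 receptor of veins, 1.26-fold apart between their highest and lowest tissue. EPHB6, which lacks kinase activity, read 50.7 in limbus, 78.1 in cornea, and 55.3 in conjunctiva.

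**Figure D3:**
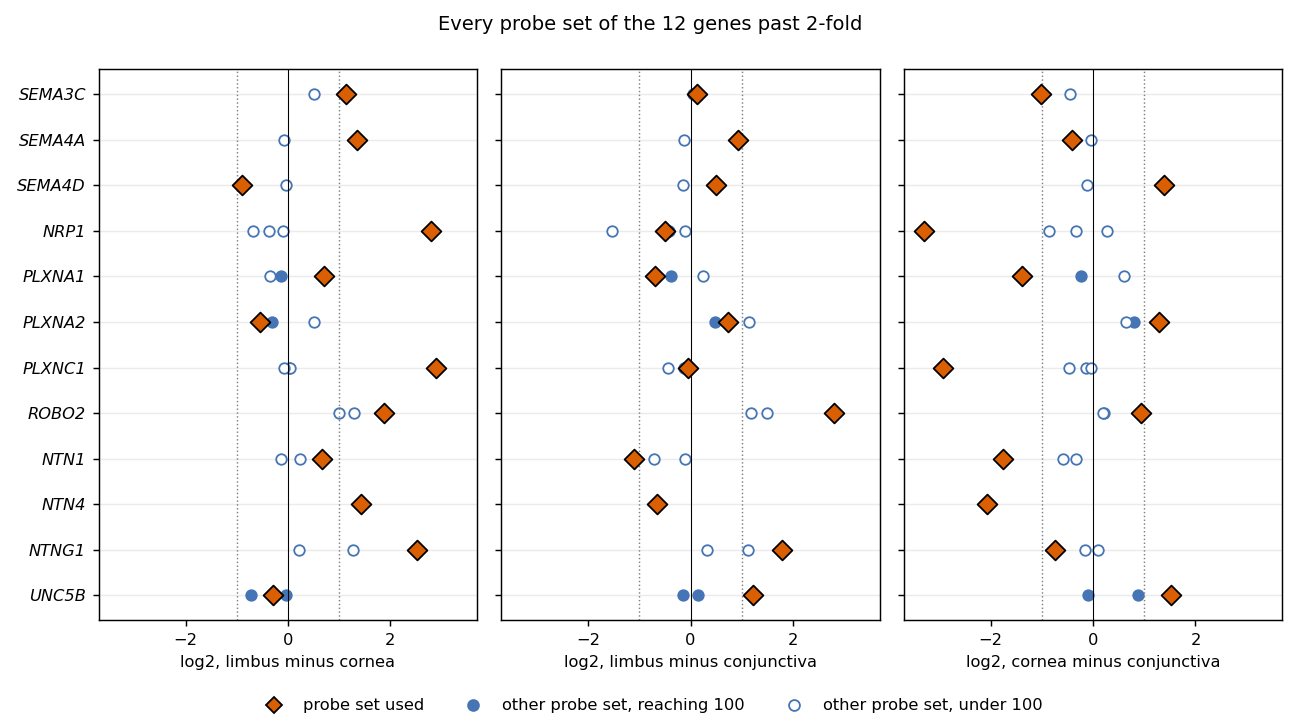
Log2 differences between tissues on every probe set of the 12 genes that were at least 2-fold apart in some pair: the probe set used (diamonds), other probe sets that reached 100 in any tissue (filled circles), and other probe sets under 100 (open circles). Dotted lines mark 2-fold; for ROBO2 and NTNG1 the other probe sets lie on the side of the limbus in both limbal panels, whereas for NRP1 those in the left panel lie on the side of the cornea.

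Taken as gene and pair of tissues, there were 20 differences of at least 2-fold, and 18 of them concerned a gene with another probe set. In 4 of the 18, all of ROBO2 or NTNG1, another probe set was also at least 2-fold apart in the same direction. In 3 of the 18, SEMA4A and NRP1 between the limbus and the cornea and SEMA4D between the cornea and the conjunctiva, no other probe set had the same direction. Over all other probe sets of the list, 55.0% had their highest value in the same tissue as the probe set used, compared with 42.2% over all genes. For those that reached 100 it was 47.6%, compared with 51.7%. Where the probe set used was 2-fold apart between the limbus and the cornea, 58.3% of the others had the same direction, compared with 71.5% over all genes. Many other probe sets were low. The ratio of the signal at the 3' end of a transcript to that at its 5' end differed between the arrays. For GAPDH it was 3.12 in limbus, 4.58 in cornea, and 3.83 in conjunctiva, and for ACTB it was 11.8, 11.2, and 10.3. Its part in the low probe sets was not tested. Only 4 of the 18 differences, those of PLXNA1, PLXNA2, and UNC5B, could be set against another probe set that reached 100, and in 0 of these was it also 2-fold apart. Over all genes, 40.6% of such probe sets were also 2-fold apart for the limbus against the conjunctiva and 49.5% for the cornea against the conjunctiva. Conversely, 8 genes had another probe set at least 2-fold apart in a pair where the one used was not.

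Ligands and their receptors or co-receptors were set side by side in 28 pairs. The ligand and the receptor had the same highest tissue in 7 pairs. SEMA3B with NRP2 and SEMA3E with PLXND1 were among them, and these ligands were under 100 in every tissue. No share for other gene pairs is given, so the count is a description. For NTN1 and UNC5B the log2 difference of the cornea minus the conjunctiva was -1.77 for the ligand and 1.52 for the receptor. For SEMA3C and NRP1 it was -1.01 and -3.30, and for SEMA3A and NRP1 it was 0.08 and -3.30. SLIT2 and ROBO2 had a log2 difference of the limbus minus the conjunctiva of -0.08 and 2.81. SEMA7A and PLXNC1 had a log2 difference of the limbus minus the cornea of 0.40 and 2.90. The pairs share genes, so they are not independent of each other.

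Further genes of the pathway that are no members were counted from a separate list. Of 37 other ligands, receptors, and regulators measured, 19 reached 100 in any tissue. Of the 37, 1 gene was at least 2-fold higher in limbus than in cornea and 1 was lower, compared with 4.06% and 2.51% of all genes, and 2 were higher and 1 lower in limbus than in conjunctiva, compared with 2.62% and 2.31%. In cornea, 1 was at least 2-fold higher and 4 were lower than in conjunctiva, compared with 5.31% and 5.68% of all genes. ROBO4, a robo receptor of vascular endothelium, read 80.6 in limbus, 49.4 in cornea, and 173 in conjunctiva. SEMA3G, a class 3 semaphorin of blood vessels, read 66.3 in limbus, 31.5 in cornea, and 104 in conjunctiva.

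A list of 50 effectors of guidance signals included the surface adhesion molecules L1CAM, NRCAM, CHL1, and ITGB1. Of the 50, 4 were at least 2-fold higher in limbus than in cornea, compared with 4.06% of all genes. Another 2 were lower, compared with 2.51%. In limbus, 2 were higher and 1 was lower than in conjunctiva, compared with 2.62% and 2.31%. In cornea, 4 were higher and 4 were lower than in conjunctiva, compared with 5.31% and 5.68%. The GTPase RAC2, known from blood cells, had the largest span, with 392 in limbus, 65.1 in cornea, and 994 in conjunctiva. DPYSL3, a collapsin response mediator that acts downstream of semaphorin 3A, read 854 in limbus, 233 in cornea, and 1283 in conjunctiva. TIAM1, an exchange factor for Rac, had the opposite order, with 3393 in limbus, 5007 in cornea, and 1615 in conjunctiva.

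Markers of vessels, connective tissue, and leukocytes were lower in cornea than in conjunctiva, as were the guidance genes named below. All 8 markers of blood vessel endothelium were lowest in cornea, and those that reached 100 numbered 7 in limbus, 1 in cornea, and 6 in conjunctiva. PECAM1, an adhesion molecule of endothelium, was at 462 in limbus, 45.9 in cornea, and 675 in conjunctiva. The summed level of these 8 was 1640 in limbus, 535 in cornea, and 2482 in conjunctiva. All 5 markers of connective tissue fibroblasts, all 5 of smooth muscle and pericytes, and all 5 of leukocytes were lower in cornea than in conjunctiva. Against the limbus the picture was less uniform. Of the smooth muscle and pericyte markers 3 of 5 were lower in cornea than in limbus, and of the leukocyte markers 4 of 5, with DES, CNN1, and CD3E as the exceptions. The median log2 difference of the limbus minus the cornea was 0.17 for smooth muscle and pericytes. The summed level of the fibroblast markers was 6647 in limbus, 4490 in cornea, and 14914 in conjunctiva. That of smooth muscle and pericytes was 1234 in limbus, 432 in cornea, and 3427 in conjunctiva. That of leukocytes was 811 in limbus, 422 in cornea, and 1692 in conjunctiva. Their part in the low corneal values of NRP1, PLXNC1, PLXNA1, NTN1, NTN4, and SEMA3C was not tested.

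**Figure D4:**
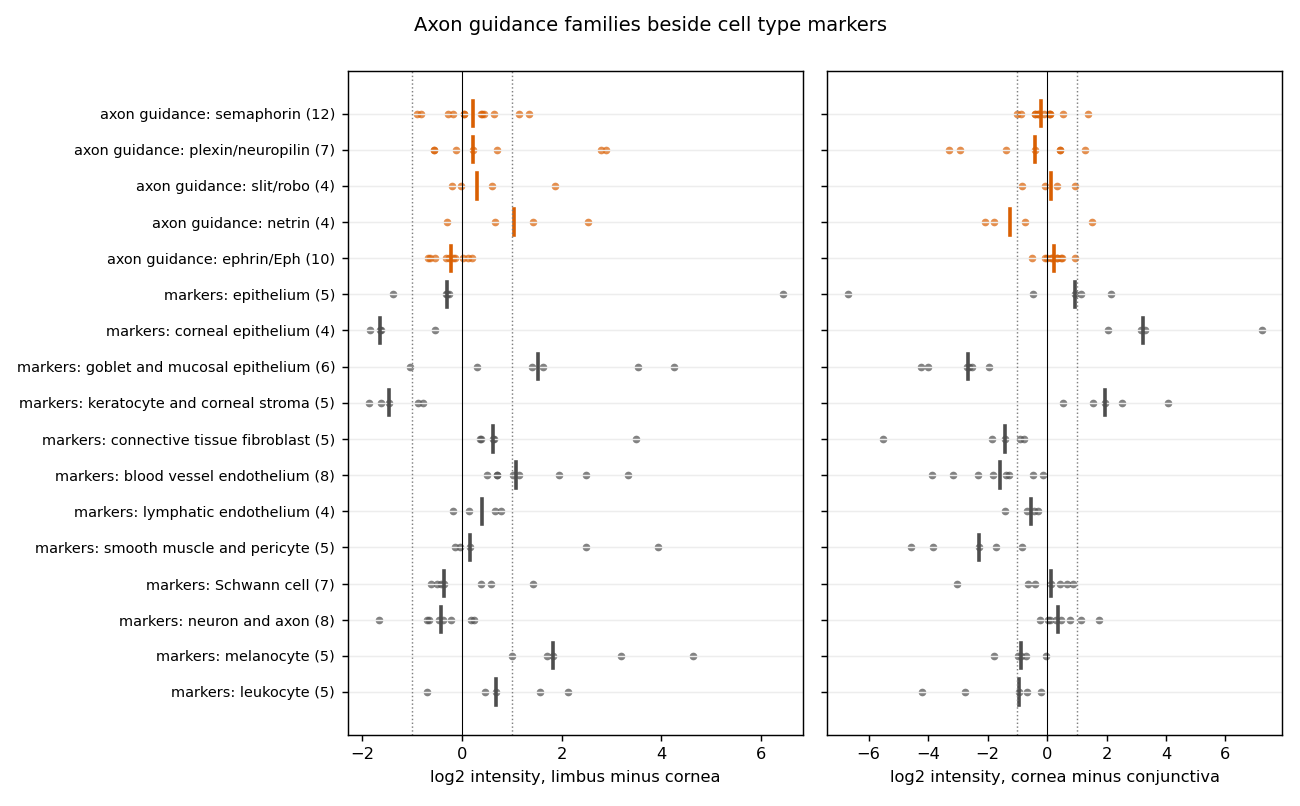
Log2 difference of the limbus minus the cornea (left) and of the cornea minus the conjunctiva (right) for single genes (points) and their median (bars), by guidance family (orange) and by marker list (gray), with the number of genes measured in parentheses. The 8 blood vessel markers lie below 0 in the right panel, and the 10 ephrin and Eph genes stay within the dotted lines of 2-fold in both panels.

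ROBO2 and NTNG1 shared their highest tissue, the limbus, with the melanocyte markers. The log2 difference of the cornea minus the conjunctiva was 0.94 for ROBO2 and -0.75 for NTNG1, and its median was -0.89 for the melanocyte markers. The corneal and conjunctival values of ROBO2 and NTNG1 were under 100, so these differences are uncertain. The other probe sets gave 0.21 and 0.20 for ROBO2 and 0.09 and -0.15 for NTNG1. All 5 melanocyte markers measured were highest in limbus, with a summed level of 1851 in limbus, 457 in cornea, and 825 in conjunctiva. TYRP1, an enzyme of melanin synthesis, was at 290 in limbus, 11.7 in cornea, and 21.6 in conjunctiva. Of 7 Schwann cell markers measured, 1 was highest in limbus, 4 in cornea, and 2 in conjunctiva, and their summed level was 1792 in limbus, 2156 in cornea, and 1867 in conjunctiva. ERBB3, which epithelia also express, made up most of this sum, and without it the other 6 summed to 574 in limbus, 527 in cornea, and 977 in conjunctiva, which turned the order. Of 8 markers of neurons and axons, 2 were highest in limbus and 6 in cornea, with a summed level of 1984 in limbus, 2829 in cornea, and 1678 in conjunctiva. Without TUBB3, the brightest, the other 7 summed to 309 in limbus, 528 in cornea, and 328 in conjunctiva. Only TUBB3 and SYT1 of these 8 reached 100. The axonal neurofilaments NEFL, NEFM, and NEFH, all under 100, differed in direction. NEFL was lowest in cornea, whereas NEFM and NEFH were highest there. The part of any of these cells in the values of ROBO2 and NTNG1 was not tested.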

How the data were processed

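Total RNA from each tissue was amplified, hybridized to Affymetrix human U133 Plus arrays, and scanned. Per the labels and the study's methods, the authors normalized each array by RMA (justRMA, version not given in the sources used here) alongside a constant set of reference arrays and not with each other, so the arrays may still differ in scale. The deposited table holds linear intensities for 54675 probe sets in each tissue, with 0 values missing. They were used without further normalization.

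Probe sets were named from the platform annotation of GEO, an older one, in which 41097 have 1 symbol, 1801 have several, and 11777 are not named here. Probe sets with several symbols were left out. The probe set with the highest average log2 value stood for its gene. Ratios and log2 differences were computed within a probe set, with a threshold of 2-fold, and counts were read against the same count over all 19775 genes. With 1 array per tissue no test was possible, and precision is limited by the number of arrays. All guidance genes measured are reported, those at least 2-fold apart in any pair with all values. Of other pathway genes with a value of at least 100, those with the largest ratio between tissues were eligible for naming. The members, lists, and pairs were chosen with earlier results of these data known. The counting was tested on simulated arrays. Alternatives varied the threshold, a minimum value of 100, a pseudocount of 32, the scaling, and the choice of probe set. Python 3.11.15, numpy 2.4.6, pandas 2.3.3, and matplotlib 3.10.9 were used.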

Additional observations from a re-analysis of the deposited data

How the results depend on the processing

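No paired analysis was possible because there was 1 array per tissue. The 20 differences of at least 2-fold depended mostly on the probe set. With the median of all probe sets of a gene, taken per tissue, 6 of the 20 were kept and 5 were gained, 2 each of SLIT3 and EPHA4 and 1 of NRP1. Kept and gained together, the limbus was higher than the cornea in 4 genes instead of 7, one of them SLIT3, compared with 2.80% of all genes. The cornea was higher than the conjunctiva in 1 instead of 3, the gained EPHA4, and lower in 3 instead of 6, again with SLIT3. Over all genes these shares were 4.07% and 4.22%. Only ROBO2, 1 gene instead of 2, belonged to the limbus, compared with 0.334% of all genes. With the probe set of the highest single value all 20 were kept. The genes concerned had the same probe set under both rules, so this was no check of them. NRP2 became the 1 gene lower in limbus than in cornea, compared with 2.78% of all genes, and the 1 gene of the cornea, compared with 2.13%. Over all 97 probe sets, 3 were lower in limbus than in cornea, 8 were higher and 4 lower in limbus than in conjunctiva, 6 were higher in cornea than in conjunctiva, 4 belonged to the limbus and 2 to the cornea, and the median of the limbus minus the conjunctiva was -0.06. No share over the probe sets of all genes is given beside these counts, so they only describe the list.

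Quantile normalization and median scaling each kept 19 of the 20 and lost SEMA3C between the cornea and the conjunctiva. Scaling to the hybridization controls shifted the median of all genes to 0.57 for the limbus minus the cornea, 0.26 for the limbus minus the conjunctiva, and -0.32 for the cornea minus the conjunctiva, and that of the guidance genes to 0.65, 0.34, and -0.34. It raised the genes higher in limbus to 14 over the cornea, compared with 16.7% of all genes, and 5 over the conjunctiva, compared with 5.87%, with 0 lower in limbus than in conjunctiva and 0 of the conjunctiva, where NTN1 was lost, and PLXNA2 was lost between the cornea and the conjunctiva. No difference of at least 2-fold changed direction under these scalings, the pseudocount, the median of all probe sets, or the highest single value. The pseudocount keeps the order of 2 values, so it could not have changed a direction. The highest single value picked the same probe sets for these genes, so it could not have changed one. Scaling to the array medians or to the hybridization controls shifts a log2 difference by at most 0.62, less than 2-fold, so it could not either. Single probe sets did differ in direction. In 8 of the 20, of the 6 genes NRP1, SEMA4A, SEMA4D, PLXNA1, PLXNC1, and UNC5B, at least 1 other probe set ran the opposite way. The sums of marker lists without their brightest gene were added after the data were seen. The highest tissue then changed for the Schwann cell list and for a list of general epithelial markers.

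With a pseudocount of 32, 17 of the 20 were kept, and 0 genes were lower in limbus than in conjunctiva or belonged to the conjunctiva. At 3-fold, 4 genes were higher in limbus than in cornea, 0 were lower in limbus than in conjunctiva, 0 were higher in cornea than in conjunctiva, and 0 belonged to the conjunctiva. At 1.5-fold, 11 were higher and 4 lower in limbus than in cornea, 5 were higher and 5 lower in limbus than in conjunctiva, 5 were higher in cornea than in conjunctiva, 2 belonged to the cornea, and 3 belonged to the conjunctiva. A minimum value of 100 removed both differences of SEMA3C. The 6 genes under 100 in all tissues are limited by their low signal.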
